A study of Homo sapiens with 8 samples.

Results

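ATAC-seq, in which the Tn5 transposase cuts accessible DNA, was used to follow chromatin through cardiac differentiation of cells of the human embryonic stem cell line RUES2. The regions described here were accessible in hESC, MES and CP and had lost their peak in CM. They were selected on their peaks alone. A stage set was the part shared by the peak lists of its 2 replicate libraries, and the 4 stage sets were merged into 138383 regions on chromosomes 1 to 22 and X. A member overlapped the hESC, MES and CP sets, was absent from the CM set and touched no peak of either CM list. This gave 7447 regions, or 16.4% of the 45502 regions present at the 3 early stages. A further 9900 were absent from the CM set but touched a peak in a single CM list or unshared peaks in both, and are called partly lost. The remaining 28155 were present at all 4 stages and are called kept. The absence of a CM peak is the selection itself and is no finding.

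The hESC libraries (day 0) were collected after a day in E8 medium with CHIR-99021, an activator of Wnt signaling. MES libraries (day 2) followed a change to RPMI with BSA, ascorbic acid and CHIR-99021. CP libraries (day 5) came after Xav-939, a Wnt inhibitor, had been given, and CM libraries (day 14) after B27 had been added. There were 2 replicate libraries per stage, all from the same line, and no sort is named for these cells. In such bulk samples, fewer cells with an open region and less opening per cell cannot be told apart.

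In a pluripotent cell, many accessible sites away from promoters are enhancers held open by factors such as POU5F1, SOX2 and NANOG. Many of these enhancers close as the factors are lost. Mesoderm is then patterned by Wnt, FGF and NODAL signals, and cardiac progenitors by GATA, T-box, HAND and MEF2 factors. Differentiated cardiomyocytes divide less and devote much of their transcription to the contractile apparatus. A region that stays open from hESC to CP and closes later is open past the exit from pluripotency.

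The lists used held 55777 to 156179 peaks, with the fewest in CM replicate 2 and 92731 in CM replicate 1. Without the list of CM replicate 1 the same rule gave 16139 members in place of 7447, and most partly lost regions (8692 of 9900) touched a peak of that list alone. At promoters, here within 1 kb of a transcription start site (TSS), NANOG had a peak in the 4 hESC and MES libraries and in none of the CP and CM libraries. MYH6, a cardiac myosin, had a peak in CP replicate 2 and both CM libraries. The other stage markers did not separate the stages in this way. POU5F1 had a promoter peak in 7 libraries, CM replicate 1 included (fold 3.77). SOX2, the mesoderm genes TBXT, EOMES and MIXL1, the progenitor genes ISL1, HAND1 and TBX5 and the sarcomere genes TNNT2, ACTN2 and TTN had promoter peaks in all 8. Of markers of other lineages, PAX6, SOX1, SOX17 and KDR had promoter peaks in all 8 libraries, at folds of 2.97 to 10.9, FOXA2 in 7, PECAM1 in 2 and CDH5 in none. Their part in the results below was not tested.

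The members with the strongest evidence mostly lay away from promoters, and the sequences of 4 named members are given first as examples. Each is the 200 bp window around the mean summit of the 6 early libraries, on the plus strand of hg38, with any match to the searched motifs in capitals. The IL2 window belongs to the region with the highest minimum of −log10 q. The window in LINC01122 holds the FOXH1 letters AATCCACA and the NKX letters. The window 153000 bp from MEOX2 holds TEAD and ZIC letters, and the window in an intron of CDX1 holds the SOX letters.
IL2, chr4:122450907-122451106: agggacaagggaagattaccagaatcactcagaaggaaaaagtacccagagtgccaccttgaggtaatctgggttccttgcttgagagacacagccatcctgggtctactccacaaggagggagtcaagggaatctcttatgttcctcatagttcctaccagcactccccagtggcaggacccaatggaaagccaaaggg
LINC01122, chr2:58535298-58535497: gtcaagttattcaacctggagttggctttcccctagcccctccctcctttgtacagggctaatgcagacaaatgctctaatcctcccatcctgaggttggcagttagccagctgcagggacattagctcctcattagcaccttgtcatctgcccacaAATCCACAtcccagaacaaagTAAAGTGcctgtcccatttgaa
MEOX2, chr7:15839440-15839639: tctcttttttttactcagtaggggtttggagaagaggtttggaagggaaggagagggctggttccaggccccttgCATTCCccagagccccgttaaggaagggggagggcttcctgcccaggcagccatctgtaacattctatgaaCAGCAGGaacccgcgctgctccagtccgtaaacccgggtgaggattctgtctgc
CDX1, chr5:150175633-150175832: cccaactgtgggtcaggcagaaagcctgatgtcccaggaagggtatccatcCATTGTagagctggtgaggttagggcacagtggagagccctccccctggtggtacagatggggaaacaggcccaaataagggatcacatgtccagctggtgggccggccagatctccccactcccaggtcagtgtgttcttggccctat

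A further pair of windows holds the octamer ATGCAAAT, the letters read by POU5F1 and other POU factors, and was chosen after the values were seen because members with the octamer differ along the early stages. Both lie between genes, and the capitals mark the octamer on either strand.
ADAMTS3, chr4:72667013-72667212: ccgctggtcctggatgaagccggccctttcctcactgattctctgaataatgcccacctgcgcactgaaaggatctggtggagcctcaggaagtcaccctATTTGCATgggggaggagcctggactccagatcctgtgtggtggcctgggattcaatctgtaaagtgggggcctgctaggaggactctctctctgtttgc
DUSP5, chr10:110408237-110408436: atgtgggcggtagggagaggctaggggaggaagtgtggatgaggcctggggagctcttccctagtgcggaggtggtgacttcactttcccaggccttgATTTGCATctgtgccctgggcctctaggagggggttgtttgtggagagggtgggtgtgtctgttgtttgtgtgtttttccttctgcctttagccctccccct

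The folds of the first 4 of these ranged from 5.13 to 17.8 over the early libraries. The region near IL2 (chr4:122450800-122451217) lies 5716 bp from the TSS of this T-cell cytokine gene. Its fold of pileup over local background was 16.4 and 15.5 in hESC, 16.1 and 17.5 in MES, and 12.5 and 17.8 in CP. It thus stayed at a similar level until day 5, and its nearest CM peak was 7573 bp away. The LINC01122 region (chr2:58535130-58535586) had folds of 7.11 and 6.51 in hESC, 10.1 and 12.6 in MES, and 8.88 and 9.26 in CP. Here all MES and CP values lay above both hESC values. The MEOX2 region (chr7:15839357-15840008) had folds of 12.0 and 15.3 in hESC, 14.1 and 12.6 in MES, and 9.61 and 14.4 in CP, and these groups overlap. The CDX1 region (chr5:150175569-150175902), in an intron of a homeobox gene of the posterior mesoderm, had 5.56 and 8.07 in hESC, 6.08 and 7.04 in MES, and 5.13 and 8.13 in CP. The 10 members with the highest minimum of −log10 q, from 28.9 to 46.0, spanned folds of 6.51 to 19.98. They lay in introns or between genes, except for the region at chr11:102807713-102808349, 9871 bp from MMP1, which touches an exon.

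At the edge of the selection, members and partly lost regions grade into each other. Of the partly lost regions, 8692 had a peak only in CM replicate 1, 1114 only in CM replicate 2 and 94 had unshared peaks in both. These CM peaks had median folds of 3.95 and 4.52 in replicates 1 and 2, and the lowest −log10 q among them was 2.41 and 2.45. Inside the selection, 92 members had the edge of a CM peak within 100 bp, 876 (11.8%) had a CM peak within 1 kb, and 507 (6.81%) had none within 50 kb. The median distance from a member to a CM peak was 8751 bp, beside 9082 bp for the 21081 hESC-specific regions that touched no CM peak. For 6676 members (89.6%), the CP fold, scaled by the kept regions, was above the lowest fold that could be called at mean background in both CM libraries. For the other members a CM peak of the CP height could have gone uncalled at this depth. Passing the limit does not show that a peak would be called, since the limit holds at mean background only. The median CM replicate 1 fold of partly lost regions, 3.95, was above the limit of 3.11 in CM replicate 2, where most had no peak.

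Members were weaker than kept regions from the start. In hESC replicates 1 and 2 the median fold of members was 5.58 and 6.23, against 6.95 and 7.14 in kept regions. It was 5.65 and 6.67 in MES, against 7.23 and 7.94. It was 4.70 and 5.52 in CP, against 6.57 and 8.30. Every early library therefore had the lower median in the members. Kept regions had to pass the peak threshold in both CM libraries, so the selection itself favors weaker peaks among the members. The fold is that of the strongest peak in a region, and kept regions were wider (median 722 bp against 359 bp). How much of the difference this makes was not tested. Partly lost regions had 5.63 and 6.20 in hESC, 5.88 and 6.87 in MES, and 4.91 and 6.11 in CP, close to the members in hESC and between them and kept regions in CP.

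The gap to kept regions was wider in CP. On the log2 scale the median of members minus that of kept regions was −0.32 and −0.20 in hESC, −0.36 and −0.25 in MES, and −0.48 and −0.59 in CP. Both CP values lie below all 4 earlier values, while hESC and MES overlap. The relation with stage order had Pearson's r = −0.85 (exact permutation test over 6 libraries, two-sided, p = 0.0444, adjusted over 4 relations p = 0.0889) and, by exact permutation as well, Spearman's rho = −0.84 (p = 0.0667, adjusted p = 0.133). It does not pass after adjustment. Without the hESC libraries r was −0.91, and without the CP libraries −0.39, so the relation rests on CP. Members alone, without the kept regions as reference, gave r = −0.55 (exact permutation p = 0.289). The selection required a peak in CP and its absence in CM, and did not use the order of the folds. Kept regions, however, were defined by a CM peak, so both sides of this difference were split at CM, the stage after CP. How far that split widens the gap in CP was not tested, and the same limit holds for the counts by region below.

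**Figure D1:**
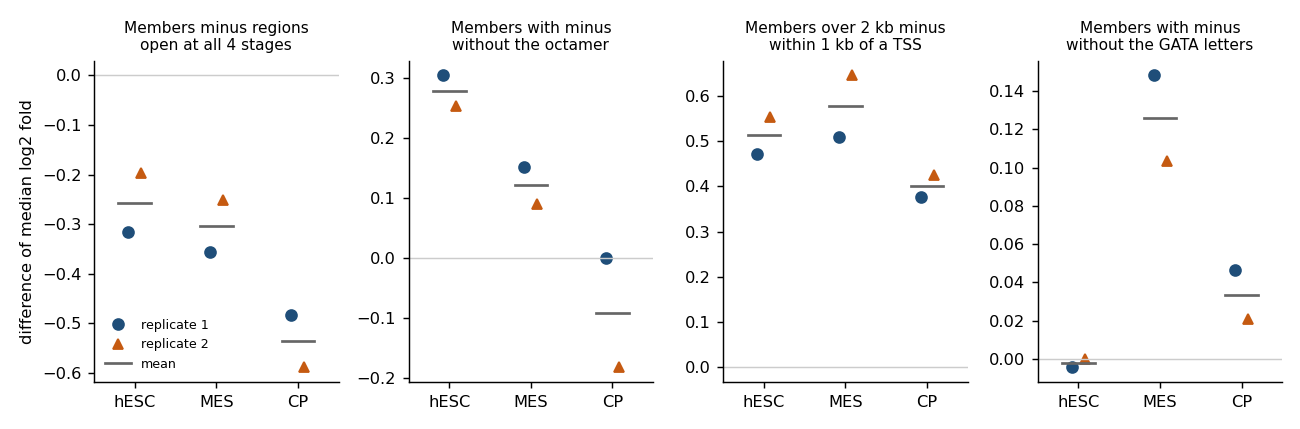
Differences of median log2 fold (vertical axes) in the 6 early libraries (circles, replicate 1; triangles, replicate 2; lines, stage means) for the 4 relations tested with stage order. In the first panel both CP values, −0.48 and −0.59, lie below all others, and in the second the values go from 0.30 and 0.25 in hESC to 0 and −0.18 in CP; the vertical scales differ between panels.

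Counted region by region, both CP folds lay below both hESC folds, relative to the kept median of each library (called lower in CP from here on), in 3633 members (48.8%), against 27.4% of all early regions. They lay above both in 599 members (8.04%), against 18.4% of all early regions. In kept regions the shares were 18.0% and 23.1%. In kept regions weighted to the members' early fold and TSS distance they were 22.2% and 24.6%. Partly lost regions stood between, at 37.9% and 12.9%. A CP mean at least 2-fold below hESC was seen in 278 members (3.73%), beside 1.06% of all early regions. In 2408 members (32.3%) the mean of the MES libraries also lay between those of hESC and CP, beside 17.2% of all early regions.

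The members with the largest difference between CP and hESC show how far this can go while a peak is still called. A region 15783 bp from SMIM43 (chr4:121749118-121749643) had folds of 14.4 and 16.7 in hESC, 4.75 and 3.65 in MES, and 4.70 and 3.48 in CP. Its height was thus lost by day 2 and its remaining peak by day 14. An intronic region of IL1RAPL1 (chrX:29225535-29226137), a synaptic adhesion gene, had 15.02 and 16.02 in hESC, 12.8 and 13.02 in MES, and 5.55 and 3.95 in CP, and so was still high at day 2. In the other direction, an intronic region of FOXP2 (chr7:114293201-114293708), a forkhead factor, had 4.11 and 4.09 in hESC, 9.15 and 10.7 in MES, and 9.61 and 10.4 in CP. The region 63 bp from a TSS of GNB5 (chr15:52191229-52191681), a G protein subunit, had 4.35 and 3.92 in hESC, 12.5 and 13.7 in MES, and 9.76 and 9.61 in CP. Both had MES and CP folds above 2 times their hESC folds and no peak in CM. These 4 were chosen after their values were seen.

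Weak and distal regions made up most members. Early regions were split into 10 groups of equal size by their median early fold. In the lowest group 23.9% were members, and in the highest 3.49%, beside 16.4% of all. Here too the peak threshold in CM favors weaker peaks among the members. Of early regions within 1 kb of a protein-coding TSS, 2.82% were members, against 18.1% at 1 to 10 kb, 20.2% at 10 to 50 kb and 28.8% beyond 50 kb. The difference by position was present at equal strength. Among early regions of the lowest fold group, 12.9% of those within 1 kb and 37.4% of those over 10 kb away were members, and in the highest group 0.119% and 7.90%. The median distance to a TSS was 48107 bp in members, 29031 bp in partly lost and 1087 bp in kept regions, and it was longer in members than in kept regions on each of the 23 chromosomes. By annotation, 440 members lay within 1 kb of a TSS, 889 touched an exon, 3441 lay in introns and 2677 between genes. Members were narrower (median 359 bp against 722 bp) and had fewer G and C bases in their windows (median 53.5% against 64%). They held a median of 3 CpG dinucleotides per window, against 13 in kept regions.

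**Figure D2:**
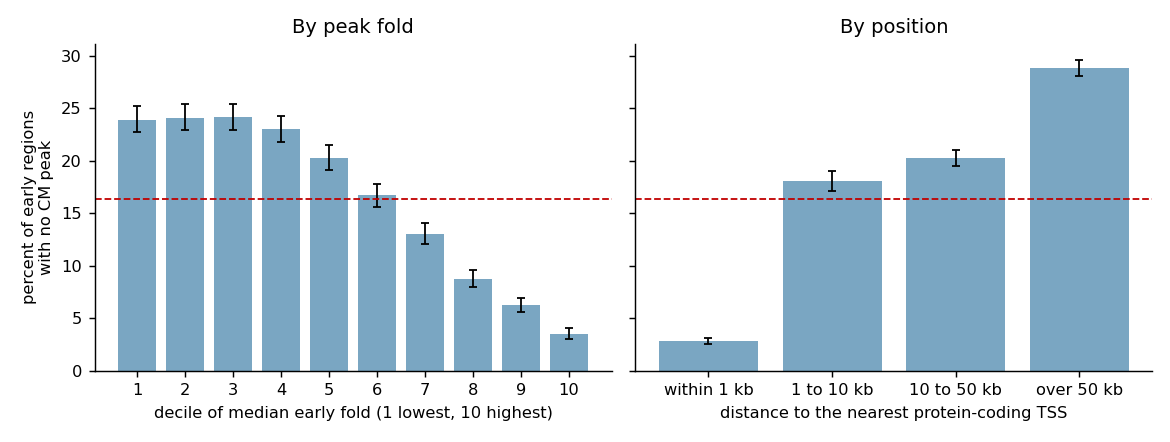
Percent of regions present in hESC, MES and CP that had no CM peak (bars, with 95% Wilson intervals) by group of equal size along the median early fold (left) and by distance to the nearest protein-coding TSS (right); the dashed line is the 16.4% over all such regions. The share goes from 23.9% in the lowest to 3.49% in the highest fold group, and from 2.82% within 1 kb to 28.8% beyond 50 kb.

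Distal members were the higher ones. Members beyond 50 kb had median folds of 6.05 and 6.75 in hESC, 6.10 and 7.21 in MES, and 4.91 and 5.84 in CP, while those within 1 kb had 4.18 and 4.37, 4.08 and 4.36, and 3.62 and 4.16. The log2 difference between members over 2 kb away and those within 1 kb was 0.47 and 0.55 in hESC, 0.51 and 0.64 in MES, and 0.38 and 0.42 in CP. Its relation with stage order was not significant (r = −0.52, exact permutation p = 0.289, adjusted p = 0.385; rho = −0.60, exact permutation p = 0.267, adjusted p = 0.356).

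Members were spread over 4583 genes by nearest TSS, of which 3101 had a single member and 181 had 5 or more. The chromosomes differed, from 8.36% of early regions on chromosome 19 to 22.2% on chromosome 4. After a member, the next early region along the chromosome was a member in 21.6% of cases, against 14.3% after a kept region, and 100 runs of at least 4 members in a row held 436 members. The longest run held 8 members over 929 kb next to PABPC4L (chr4:134935393-135864693). The next held 7 members over 706 kb near SLC6A15 (chr12:83941650-84647213), an amino acid transporter gene. Runs were counted over early regions only, so that other regions can lie between. The shares by chromosome and by neighbor and the runs were not compared at like TSS distances. Members were more frequent far from a TSS, and the part of this in these values was not tested.

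The 10 genes nearest to most members had 10 to 14 each. FAT3, an atypical cadherin, had 14 members among its 23 early regions, and PCDH7, a protocadherin, 13 among 24. EPHA7, an ephrin receptor, had 11 among 22 and its ligand gene EFNA5 10 among 24. LRP1B, a lipoprotein receptor relative, had 11 among 28, ADGRL3, a latrophilin, 10 among 21, CELF4, an RNA-binding protein of neurons, 10 among 28, and GPC5, a glypican, 10 among 33. PABPC4L had 11 among 17 and ZIC1, a zinc finger factor of neural tissue, 10 among 17. These genes were chosen by their number of members, and a gene with more early regions can hold more of them. Members made up 16.4% of all early regions and 28.8% of those over 50 kb from a TSS. Regions were assigned by nearest TSS alone, and members lay up to 2366 kb from PCDH7, 2120 kb from CELF4 and 1982 kb from EFNA5.

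FAT3 members covered chr11:91350910-92632843, from 11082 bp to 873692 bp from its TSS. Their median fold was 6.61 and 7.00 in hESC, 5.85 and 7.84 in MES, and 5.13 and 5.81 in CP, and 8 of 14 were lower in CP than in hESC, relative to kept regions. At GPC5 the medians were 7.26 and 8.14 in hESC, 8.72 and 10.1 in MES, and 5.77 and 6.74 in CP, with 7 of 10 lower in CP. ZIC1 differed from these, with medians of 4.605 and 5.11 in hESC, 5.62 and 6.69 in MES, and 4.46 and 5.58 in CP, and 2 of 10 lower in CP. One ZIC1 member covers its TSS (chr3:147409140-147409396), with folds of 3.12 to 4.53.

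Of 12 lists of genes with known roles, only the endothelial list had a member share whose Wilson interval lay above the share of all early regions at like distances. The share of members among a list's early regions is given with its Wilson interval, which covers counting error only, beside 16.4% for all early regions. It is also given beside the share over all early regions weighted to the same TSS distances. Regions of 1 gene are not independent, and no list was tested. Among endothelial genes 17 of 53 early regions were members (32.1%, 21.1 to 45.5%, against 19.4% at the same distances). Neural genes had 32 of 136 (23.5%, against 22.2%) and pluripotency genes 23 of 104 (22.1%, 15.2 to 31.0%, against 17.9%). Endoderm genes had 9 of 40 (22.5%, against 20.1%). FGF pathway genes had 22 of 125 (17.6%, against 20.2%), cardiac transcription factors 20 of 115 (17.4%, against 21.1%) and primitive streak and mesoderm genes 13 of 77 (16.9%, against 16.9%). Chromatin and DNA methylation genes had 15 of 99 (15.2%, against 17.3%), sarcomere genes 7 of 53 (13.2%, against 20.2%) and Wnt pathway genes 14 of 109 (12.8%, against 18.1%). Epithelial junction genes had 6 of 52 (11.5%, against 12.7%) and cell cycle and replication genes 10 of 98 (10.2%, against 15.9%).

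Near pluripotency genes, 15 of 24 genes with an early region had a member, beside 4583 of 15940 genes in all. The 24 genes held 104 early regions and the 15940 genes 45502, so that the list had more early regions per gene. DPPA4, a chromatin protein of pluripotent cells, had 5 members among 7 early regions. Its promoter region (chr3:109337431-109337958) had folds of 6.76 and 7.12 in hESC, 6.13 and 5.12 in MES, and 6.33 and 6.55 in CP. The promoter was thus still open at nearly its hESC fold at day 5, before scaling by kept regions, although a CM peak remained 553 bp away. Relative to kept regions it was lower in CP, with a log2 difference of CP and hESC means of −0.18. A region 494053 bp from DPPA4 (chr3:109831373-109831825) had 13.3 and 11.3 in hESC, 8.37 and 7.19 in MES, and 4.27 and 3.72 in CP, with no overlap between the stages. ZFP42, a zinc finger gene of pluripotent cells also known as REX1, had 4 members among 10. Those at 615407, 197143 and 66502 bp had all CP folds below their hESC folds. The region at 66502 bp (chr4:187929042-187929496) had 10.1 and 9.97 in hESC, 9.27 and 9.11 in MES, and 4.91 and 7.90 in CP. The region 1030 bp from the ZFP42 TSS (chr4:187996521-187997080) had 4.03 and 3.61, 4.77 and 5.39, and 3.92 and 4.79 in the same order, and these overlap. POU5F1 and SOX2 had 1 member each among 5 early regions, and NANOG none among 1. In the whole list 12 of 23 members (52.2%) were lower in CP than in hESC, beside 48.8% of all members.

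Of 22 FGF pathway members 15 (68.2%) were lower in CP than in hESC, beside 48.8% of all members, and this difference was not tested. FGFR1, an FGF receptor, had 5 members among 13 early regions, with medians of 6.56 and 6.63 in hESC, 5.15 and 6.12 in MES, and 3.69 and 3.67 in CP, and 4 of 5 were lower in CP. A region 62016 bp from FGFR1 (chr8:38530640-38531060) had 8.05 and 7.94 in hESC, 4.63 and 3.87 in MES, and 3.69 and 3.67 in CP, with no overlap between stages. SPRY2, an inhibitor of receptor tyrosine kinase signaling, had 7 members among 26. The strongest (chr13:80945337-80945697), 604391 bp away, had 16.5 and 13.3 in hESC, 13.3 and 11.5 in MES, and 6.41 and 11.2 in CP. Another SPRY2 member, 373014 bp away (chr13:79966301-79966988), had 10.6 and 9.43, 11.5 and 16.3, and 5.13 and 6.50, so it was highest in MES and lowest in CP.

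In the Wnt pathway, TCF7L2, which binds β-catenin on DNA, had 3 members among 16 early regions, and NKD1, a Wnt antagonist, 3 among 6. Their folds ranged from 3.68 to 7.69 and from 2.62 to 6.82. SP5, a Wnt target of the primitive streak, had 3 among 9, with medians of 5.91 and 6.27 in hESC, 4.24 and 5.84 in MES, and 4.91 and 5.58 in CP. In these lists 5 of 14 (35.7%) and 4 of 13 members (30.8%) were lower in CP, beside 48.8% of all members.

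Near cardiac transcription factors and sarcomere genes, the share of members was below that of early regions at like distances, within the Wilson interval. GATA4, GATA6, TBX5 and MEIS2 had no member among 7, 6, 6 and 8 early regions, and NKX2-5 none among 1. Of these regions 4, 1, 3 and 5, and the 1 of NKX2-5, were partly lost. Having no member thus does not mean that the peaks were kept in CM. IRX4 had 2 members among 6, and ISL1, HAND1 and MEF2A had 1 each among 6, 5 and 4. Of 20 members of the cardiac factor list 12 (60%) were lower in CP, beside 48.8% of all members. ZFPM2, which encodes the GATA partner FOG2, had 5 members among 8 early regions, and all 5 were lower in CP. The intronic region at chr8:105583583-105583912 had folds of 10.996 and 10.3 in hESC, 7.06 and 8.83 in MES, and 5.34 and 5.41 in CP, with no overlap between stages. MEF2C, a regulator of muscle genes, had 4 members among 16, HAND2, a bHLH factor of the right ventricle, 3 among 6, and MEIS1, a homeobox factor, 3 among 15. The MEF2C region at chr5:88702380-88702678 had 5.32 and 10.7 in hESC, 5.43 and 9.11 in MES, and 4.49 and 4.41 in CP, where the replicates of hESC and of MES lie further apart than the stages. HAND2 members ranged from 3.28 to 6.81. The strongest sarcomere member (chr1:201385314-201385696), 7741 bp from TNNT2, lies within LAD1, and had 7.76 and 5.21, 6.74 and 7.65, and 5.14 and 6.84. It overlaps between stages, and the list assigns it to TNNT2 by the nearest TSS alone.

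By number of members, the endothelial list was led by ERG, KDR and CDH5. TEK, LMO2, ETV2 and TAL1 had no member among 3, 5, 2 and 1 early regions. ERG, an ETS factor of endothelium, had 4 members among 8 early regions, and a member covers its TSS (chr21:38661318-38661774) with 4.26 and 4.38 in hESC, 4.01 and 5.66 in MES, and 3.18 and 4.71 in CP. KDR, the VEGF receptor found on early mesoderm and endothelium, had 3 members among 7. The one 139159 bp away (chr4:54986132-54986740) holds the octamer and had 9.92 and 12.2 in hESC, 10.2 and 13.7 in MES, and 7.26 and 5.11 in CP, so both CP values lie below all earlier ones. The KDR region at chr4:55186743-55187043 had 4.72 and 5.05, 8.29 and 7.92, and 5.97 and 5.09, and was highest in MES. CDH5, the VE-cadherin gene, had 3 members among 11, and all 3 were lower in CP. Its own promoter had no peak at any stage. In all, 11 of 17 endothelial members (64.7%) were lower in CP, beside 48.8% of all members, and this difference was not tested.

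Among the remaining lists, FOXA2, an endoderm factor, had 4 members among 13 early regions, SOX11 4 among 23 and POU3F2, a POU factor of neural cells, 3 among 11. The FOXA2 region at chr20:22430076-22430494 had 8.46 and 10.3 in hESC, 5.23 and 6.07 in MES, and 3.96 and 4.96 in CP, with no overlap between stages. Of 32 neural members 12 (37.5%) were lower in CP, beside 48.8% of all members. CCND2 and MYC, which drive entry into the cell cycle, had 3 members each among 8 and 13, and HMGA2, an architectural chromatin protein of embryonic cells, 3 among 10. All 3 MYC and all 3 HMGA2 members were lower in CP. In the cell cycle list as a whole this held for 8 of 10 members, beside 48.8% of all members, and this difference was not tested. The strongest, 40090 bp from CCNE1 (chr19:29771766-29772035), had 4.98 and 5.23, 5.08 and 5.86, and 4.67 and 5.03.

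Few members were promoters. A TSS of 257 protein-coding genes lay inside a member, and for 110 of them no CM peak lay within 1 kb of any TSS. The listed genes among the 110 are DLX5, MSGN1 and ERG. MSGN1, a factor of presomitic mesoderm, had 4.97 and 6.37 in hESC, 6.53 and 7.05 in MES, and 4.01 and 6.09 in CP, with overlap. DLX5, a homeobox factor, had 4.17 and 3.63, 3.45 and 4.33, and 4.08 and 3.35, with overlap. Several other promoters were chosen after their values were seen. DPPA2, the neighbor and partner of DPPA4, had 10.47 and 10.02 in hESC, 9.83 and 8.65 in MES, and 5.98 and 5.11 in CP, so that both CP folds lay below all earlier ones. CGB2 and CGB1, hormone subunit genes of the trophoblast with near-identical copies, had 12.5 and 10.7 at most, and 6.20 and 7.43, and 5.98 and 5.81, in CP. Reads that map equally well to several copies had been removed, so the values of these copies are uncertain. MMP10, a secreted protease, had 9.86 and 13.7, 9.57 and 11.3, and 7.26 and 12.2, with overlap.

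Members differed from kept regions in their short motifs as they did in position. The octamer was in 146 member windows (1.96%, 1.67 to 2.30%), in 1.06% of kept windows and in 1.15% of kept windows weighted to the members' early fold and TSS distance. The SOX letters CATTGT were in 9.36% of members, 4.75% of kept and 5.92% of weighted kept windows. The T-box letters AGGTGTGA were in 1.68%, 0.707% and 0.994%, and the ZIC letters CAGCAGG in 19.0%, 11.9% and 15.7%. Of all 138383 regions of the series, with the window at the midpoint, 1.89% held the octamer, 8.42% the SOX and 1.82% the T-box letters. The members' shares of these 3 thus stand above kept regions and near the level of the whole series. The ZIC letters were in 14.7% of all regions, below the members. Letters were searched on both strands, a match is no proof of binding, and members of 1 sequence family can share their letters.

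Other letters were less frequent in members than in kept regions. The GC box letters GGGCGG were in 14.4% of members, 48.2% of kept and 29.1% of weighted kept windows. The ETS letters CCGGAAG were in 1.92%, 8.29% and 2.76%. The core letters of CTCF, AGGGGGC, which overlap those of other G-rich factors, were in 12.9%, 16.8% and 14.7%. Of all regions of the series 17.0% held the GC box, 2.37% the ETS and 8.77% the CTCF core letters, so that for the CTCF core members stood above the whole series and below kept regions. Motifs of factor families that include cardiac factors were split, and which factor of a family reads the letters was not tested. The T-box letters, given above, stood apart from weighted kept regions (1.68% against 0.994%) but near all regions of the series (1.82%). The GATA, NKX and MEF2 letters had shares closer to weighted kept regions. The GATA letters AGATAA were in 6.83% of members and 6.42% of weighted kept windows, the NKX letters TNAAGTG in 7.94% and 7.03%, and the MEF2 letters TAAAAATA in 0.430% and 0.452%. In all regions of the series these 3 were more frequent, at 11.3%, 9.42% and 0.905%. The TEAD letters GGAATG were in 14.5% and 14.3%, the AP-1 letters TGANTCA in 7.16% and 7.90%, the TCF/LEF letters ATCAAAG in 2.59% and 2.23%, the FOXH1 letters in 0.671% and 0.591%, and the YY1 letters AAGATGGC in 0.873% and 0.945%. Each weighted share from the GATA to the YY1 letters lies within the Wilson interval of the members, except those of NKX, AP-1 and TCF/LEF. The GC content of weighted kept windows was still higher than that of members (mean 59.5% against 54.4%), and its part in these shares was not tested.

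Members with the octamer were higher than other members in hESC and not in CP. The difference of their median log2 folds was 0.30 and 0.25 in hESC, 0.15 and 0.09 in MES, and 0 and −0.18 in CP, with no overlap between the stages. The relation with stage order had r = −0.93 (exact permutation test over 6 libraries, two-sided, p = 0.0222, the smallest the design allows, adjusted p = 0.0889) and a Spearman coefficient of −0.96 (exact permutation p = 0.0222, adjusted p = 0.0889). It does not pass after adjustment. Without the hESC libraries r was −0.84, and without the CP libraries −0.94. Of the 146 octamer members, 108 (74.0%) were lower in CP than in hESC, beside 48.8% of all members, and 138 lay over 2 kb from a TSS. The ADAMTS3 region shown above (chr4:72666908-72667303) had 11.7 and 11.4 in hESC, 8.03 and 9.73 in MES, and 8.97 and 11.9 in CP, with overlap. The DUSP5 region (chr10:110408079-110408601), near a gene for a phosphatase of ERK, had 7.71 and 6.09, 7.49 and 9.29, and 5.24 and 5.34, so that both CP folds lay below all earlier ones. For the GATA letters the difference was −0.0045 and 0 in hESC, 0.15 and 0.10 in MES, and 0.05 and 0.02 in CP, with no relation to stage order that passed the test (r = 0.26, exact permutation p = 0.644, adjusted p = 0.644; rho = 0.48, exact permutation p = 0.4, adjusted p = 0.4).

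A share of the members carries related sequence. When the windows were aligned to each other, 1283 members (17.2%) matched another member over at least 80 bp, in 109 families. The same held for 11.9% of partly lost regions and 3.46% of kept regions, each aligned to the members. Regions of the hESC, MES or CP set only matched a member in 15.96%, 13.8% and 11.2%, and regions of the CM set only in 2.60%. These groups (hESC-only to CM-only below) go by the stage sets. Peaks not shared by both replicates of another stage were allowed in them. Of the 23590 hESC-only regions, 21081 touched no CM peak. The 7 families of at least 50 members held 726 members (9.75%). The median identity of their alignments was 75.7 to 80.5% by family, so their windows are similar and not identical. These families were built after the values were seen, and are a description.

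**Figure D3:**
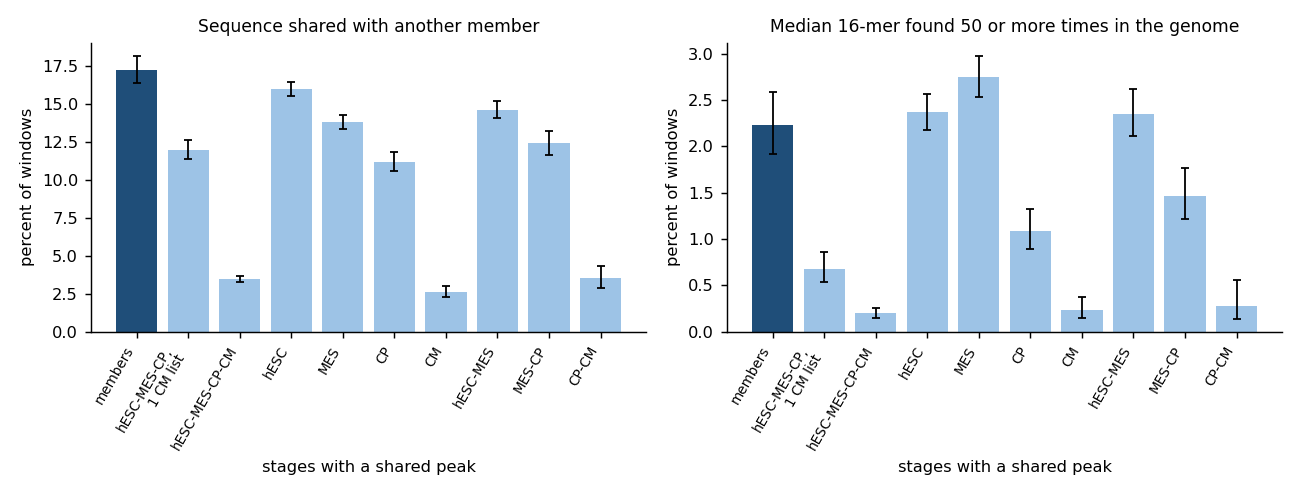
Percent of 200 bp windows (bars, with 95% Wilson intervals) that align to another member over at least 80 bp (left) and whose median 16-mer occurs 50 or more times in the genome (right), by the stages that share a peak. Members stand at 17.2% and 2.23%, near the regions of the hESC set only (15.96% and 2.37%). Regions of all 4 stage sets (3.46% and 0.195%) and of the CM set only (2.60% and 0.235%) are the lowest groups together with CP-CM.

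The largest family held 300 members (4.03%) on 22 chromosomes, with a median TSS distance of 115517 bp. Its sequence matched 3.10% of partly lost, 0.622% of kept and 0.152% of CM-only regions, but 2.78% of CP-only and 3.55% of MES-CP regions. Relative to kept regions its median log2 fold was −0.32 and −0.16 in hESC, −0.14 and 0.03 in MES, and −0.30 and −0.25 in CP, so it was highest in MES. The short word TAGGTAAA, the one that most set distal members apart from distal kept regions, was in 109 of these 300 windows and in 1.88% of all members, against 0.195% of kept regions. The letters resemble the start of LINE-1, a retrotransposon. This is background knowledge, and no repeat annotation was used here.

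Copies of this family with the word took different courses. The copy 80583 bp from EFEMP1 (chr2:55836840-55837553), one of the 10 strongest members, had folds of 9.72 and 10.48 in hESC, 9.25 and 12.7 in MES, and 9.24 and 11.9 in CP, with overlap. The copy 28255 bp from VWDE, on chromosome 7, had 7.61 and 7.65, 11.4 and 11.2, and 9.84 and 14.9, so that all MES and CP values lay above both hESC values. The copy 156126 bp from ARPP21, on chromosome 3, had 11.2 and 11.9, 14.9 and 16.04, and 7.05 and 9.99, and was lowest in CP.

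The other large families differed in when they were most frequent. The family of 78 members matched 2.62% of hESC-only, 1.27% of MES-only, 0.737% of CP-only and 0.263% of CM-only regions. The family of 73 members matched 3.07% of MES-only and 1.38% of hESC-only regions, against 0.220% of CP-only and 0.0277% of CM-only regions. The family of 109 members matched 1.46% of members and 0.149% of kept regions. Counted without the members as reference, the median 16-mer of a window occurred 50 or more times on chromosomes 1 to 22 and X in 166 members (2.23%), 0.677% of partly lost and 0.195% of kept regions (0.454% of weighted kept regions). It did so in 2.37% of hESC-only, 2.75% of MES-only, 1.09% of CP-only and 0.235% of CM-only regions. Of the 288 early regions with such a window, 57.6% were members, against 16.1% of the other 45214. Repeated members had median log2 folds of −0.21 and −0.12 in hESC, −0.09 and −0.08 in MES, and −0.36 and −0.29 in CP relative to kept regions. Reads that map to several copies had been removed by the mapping quality limit, so near-identical copies are undercounted at every stage.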

How the data were processed

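Libraries and depth: 8 ATAC-seq libraries of RUES2, 2 per stage, entered as peak lists of 55873 to 156282 peaks. The authors aligned the reads to hg38 (BWA 0.7.13), discarded secondary and duplicate alignments (Picard) and those with mapping quality of 30 or less. Peaks were called per library by MACS2 2.1.0 at q = 0.01, each read end moved by 100 bp and extended to 200 bp. The deposited lists give a fold (a ratio of pileup over local background), and the deposited −log10 p-value and −log10 q-value. They hold no read counts, but fold and −log10 p together fix each pileup. A peak missing from a list did not pass in that library, so presence depends on depth.

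Regions, stage sets and members were made with bedtools 2.31.1. The value of a region in a library is the fold of its strongest peak there. TSSs and exons are those of GENCODE 44. Relations with stage order were tested over 6 early libraries by exact permutation of 90 distinct orders (two-sided), with Benjamini-Hochberg adjustment over 4 relations. No other test was made. Shares carry 95% Wilson intervals, which cover counting error only. Kept regions were weighted to the members over 10 groups of early fold and TSS distance class. Windows were aligned with blastn 2.17.0 (e-value 1e-10, at least 80 bp) and 16-mers counted on both strands. Sequences of single copies of the families are not reported here.

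Named regions are the 10 members with the highest minimum of −log10 q over the early libraries and the best member of each list. Named genes are the 10 nearest to most members, list genes with at least 5 early regions of which at least 3 are members, and list genes whose promoter lost every CM peak. Members, lists and tests were chosen with earlier results of these data known. The replicates are separate samples by their labels, which name no shared batch. Rule, motif search, pileup and permutation test were tested on simulated data. Python 3.11.15, scipy 1.17.1, pandas 2.3.3, numpy 2.4.6, pysam 0.24.0, networkx 3.6.1 and matplotlib 3.10.9 were used.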

Additional observations from a re-analysis of the deposited data

How the results depend on the processing

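The number of members was 17347 (38.1% of early regions) when only absence from the shared CM set was asked for, 27925 (35.6%) with the union of the early lists and 2193 (7.87%) with lists of equal length, against 7447. The share was 14.4% with no CM peak allowed within 1 kb, 15.3% with 50% reciprocal overlap and 14.6% with −log10 q of at least 5. With each library left out in turn, members numbered 7580 to 16139 (16.6 to 35.5%), the highest without CM replicate 1. The median TSS distance was 36377 to 49428 bp over these, 12324 bp with TSSs of all transcripts and 43375 bp without the large sequence families, an alternative chosen after seeing the data. The octamer share was 1.74 to 2.71% with a library left out. The CTCF core share was 11.9 to 13.4% with a library left out, 9.91% with the union, 15.002% with equal lists and 13.8% without the families. Of pluripotency gene regions, 13.9% were members within 50 kb of a TSS, 39.8% with the union and 21.3 to 48.1% with a library left out.

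The difference of members from kept regions passed the adjusted threshold with recovered pileups (r = −0.88, exact permutation, adjusted p = 0.0444) and with the union (r = −0.91, adjusted p = 0.0444), as did the octamer difference (r = −0.97 in both, exact permutation, adjusted p = 0.0444). All 4 relations kept their direction in every alternative run. With 5 libraries the exact test cannot go below p = 0.0667. With the replicate block r was −0.86, −0.61, −0.98 and 0.27 for members, distal position, octamer and GATA, and p cannot go below 0.0556. Replicate differences of members correlated between stages at 0.03 to 0.11, and no label says that a number marks a shared batch, so the numbers are names only. No library could be given a read count from the files. The lowest background recovered from each list, which scales with the number of reads, was 2.54 in CM replicate 2 and 4.57 in CM replicate 1. In the early libraries it was 3.13 to 4.62.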
